A study of Mus musculus with 20 samples.

Results

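Eph receptors and ephrins were examined in bulk RNA-seq of 20 mouse mammary tumours, with attention to Epha7, whose transcript level was far lower in letrozole-treated tumours. The set held 10 of the 38930 named genes of the deposited table: the receptors Epha7, Epha2, Epha4, Ephb2, Ephb3, Ephb4 and Ephb6 and the ligands Efna1, Efnb1 and Efnb2. Each gene was read from its transcript with the highest total over the 20 libraries, and for Epha7 all 8 transcript rows were read as well. Epha7 was picked for its difference between letrozole-treated and other tumours, so that difference is described here without a test. The other 12 Eph and ephrin genes of the mouse served as the family background of 22 genes.

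The tumours grew from SSM3 cells, 1 oestrogen receptor-positive line from a mouse mammary tumour, placed in the mammary gland of immunocompetent 129S6/SvEv mice aged 2 to 4 months. Treatment began near a tumour volume of 150 mm3, and each of the 4 groups held 5 tumours that the design text calls biological replicates. Mice of the letrozole group were ovariectomised and injected daily under the skin for 25 days with 1 mg/kg of letrozole, an aromatase inhibitor that stops the making of oestrogen. Vehicle mice had sham surgery and daily injections of 5% ethanol in saline. The anti-PD-1 group had sham surgery and saline with ethanol plus 250 µg of an antibody against the checkpoint receptor PD-1 on days 3, 5 and 7, and the letrozole + anti-PD-1 group had ovariectomy, letrozole and the antibody. The surgery and the drug were given to the same mice and their effects cannot be told apart, so the word letrozole stands for both.

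Eph receptors form the largest family of receptor tyrosine kinases, and their ligands, the ephrins, are held on the surface of neighbouring cells. A-type ephrins are anchored by a lipid and B-type ephrins cross the membrane, and contact between cells can signal in both directions, mostly to adhesion and to the actin cytoskeleton. In the mammary gland the family takes part in duct branching and in the ordering of luminal and basal cells, and Ephb4 with Efnb2 also separates veins from arteries. Epha7 is known in addition for splice forms that end before the kinase domain.

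The libraries held 12454194 to 31297742 reads on 1 transcript per gene, and the smallest library was replicate 1 of the anti-PD-1 group. Values are normalised counts, reads divided by a size factor per library, and errors are SDs over 5 tumours. The luminal list of 8 markers (Krt8, Krt18, Krt19, Epcam, Cdh1, Gata3, Foxa1 and Elf5) had a mean log2 level of 12.94 to 13.65 in every tumour, although Elf5 was listed at 0 in at least 1 library. Progesterone receptor (Pgr), a classical oestrogen target, checked the treatment: it measured 15626 ± 2694 normalised counts in vehicle and 1370.0 ± 361 in letrozole tumours. Replicate 3 of the vehicle group stood apart on the first principal component, at 75.1 against -103.6 to -18.0 for the other vehicle tumours, and replicate 1 of the anti-PD-1 group stood apart on the second, at -165.0. Where leaving out either of them changed a call of an Eph or ephrin gene, the value without it is given as well.

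Epha7 has 8 annotated transcript rows, and the sequences below show where the forms part. Epha7-201 is the full-length receptor of 998 residues. Epha7-203 starts 119 bases later and skips 12 bases, given in capitals in the first line, and encodes 994 residues. Epha7-202 runs after exon 9 into an exon that the full-length form lacks and stops, with 610 residues, so that no kinase domain is encoded. The first 116 bases of that exon are also in Epha7-206. In the line of Epha7-202 the capitals mark the bases from the branch to the stop codon TAA. Epha7-208 is annotated as non-coding and reads on from exon 5 into the intron, and its capitals mark the first 60 bases of that extension. The sequences are those of GENCODE vM21, 5′ to 3′.
Epha7-201: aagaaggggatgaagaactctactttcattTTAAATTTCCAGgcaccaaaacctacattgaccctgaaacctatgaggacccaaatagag
Epha7-203: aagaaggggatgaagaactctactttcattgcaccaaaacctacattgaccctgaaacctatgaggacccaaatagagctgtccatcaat
Epha7-202: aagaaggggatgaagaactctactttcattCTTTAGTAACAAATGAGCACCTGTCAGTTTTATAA
Epha7-208: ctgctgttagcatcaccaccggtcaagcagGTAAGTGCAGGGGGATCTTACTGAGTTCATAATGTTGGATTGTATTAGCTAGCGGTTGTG

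**Figure D1:**
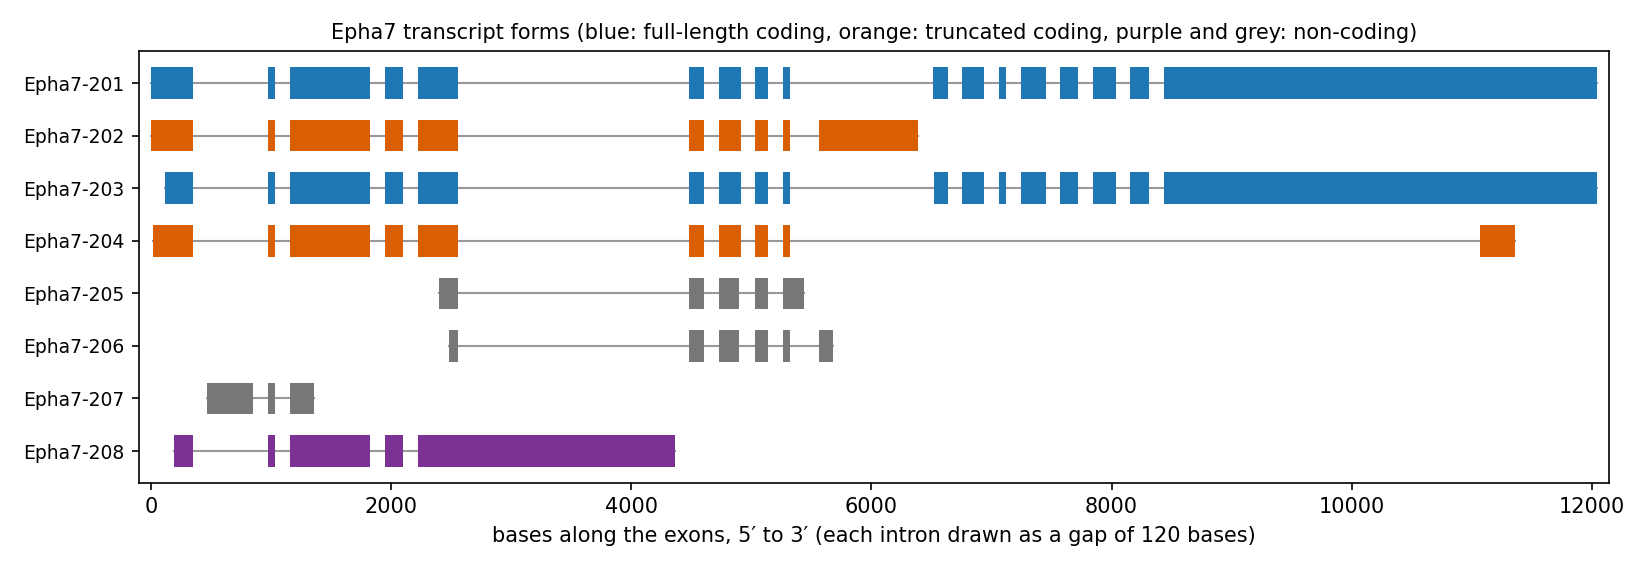
Exons of the 8 annotated Epha7 transcripts along a common axis in bases, 5′ to 3′, with each intron reduced to a gap of 120 bases. Epha7-202 and Epha7-204 share exons 1 to 9 with the full-length form, apart from the first 21 bases that Epha7-204 lacks. The former then ends in an exon that the full-length form lacks, of which Epha7-206 shares the first 116 bases. The latter ends in a short part of the last exon, and Epha7-208 carries the long extension of exon 5.

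Only 12 of the 6746 bases of the full-length Epha7 row lie in no other Epha7 row, so it does not measure the full-length form alone. This row was high in the tumours without letrozole and low in every letrozole-treated tumour. In vehicle tumours its normalised counts were 1377, 1090.4, 935, 1513 and 1675, and in anti-PD-1 tumours 483, 769, 936, 1542 and 1099.9. Letrozole tumours held 76.8, 149, 180.1, 139.9 and 214, and letrozole + anti-PD-1 tumours 69.6, 262, 72.7, 138 and 262. The highest of the 10 letrozole-treated tumours, at 262, was below the lowest of the 10 others, at 483, which was replicate 1 of the anti-PD-1 group. Of all 19840 genes tested, 0.454% showed no overlap between these 2 sets of 10 tumours, a share from which nothing is read for Epha7, since it was picked on this difference. The mean of 1318 ± 303 in vehicle tumours was 8.68 times the mean of 152 ± 51.1 in letrozole tumours. With the antibody in both groups, 966 ± 395 was 6.0 times 161 ± 96.5. On the scale of log2(value + 1) the differences of group means were -3.15 and -2.71. Leaving out any 1 library kept the first between -3.30 and -2.93 and the second between -2.94 and -2.46.

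The antibody was a comparison that had no part in choosing Epha7. Epha7 was lower in anti-PD-1 than in vehicle tumours by 0.52 on the log2 scale, with a 95% interval of -1.30 to 0.26 and an adjusted p of 0.9999 in limma. The groups overlapped: 3 of the 5 anti-PD-1 tumours lay inside the vehicle range of 935 to 1675, and the other 2, at 483 and 769, lay below it. With letrozole in both groups, the antibody difference was -0.07 (interval -0.85 to 0.71, adjusted p of 1). The interaction, which asks whether the letrozole difference itself depended on the antibody, was 0.45 (interval -0.65 to 1.55, adjusted p of 0.9999). No gene of the table passed the threshold of 0.05 in any of these 3 contrasts by limma or edgeR, while 2.72%, 3.16% and 1.98% of genes had an unadjusted p under 0.05 and DESeq2 called 5, 9 and 4 genes. In bulk tissue, fewer cells that express a gene and less RNA per cell cannot be told apart. The mean log2 level of the luminal markers was 13.16 ± 0.18 in vehicle and 13.52 ± 0.17 in letrozole tumours. Its Pearson r with Epha7 over the 20 tumours was -0.52. In letrozole against vehicle limma called 0 of the 7 luminal markers tested, beside 0.958% of all genes. DESeq2 called 2 there (Epcam and Gata3), beside 3.14%. With the antibody in both groups limma called 1, beside 1.07%, and averaged over both arms 2, beside 7%. Which cells express Epha7 was not tested.

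**Figure D2:**
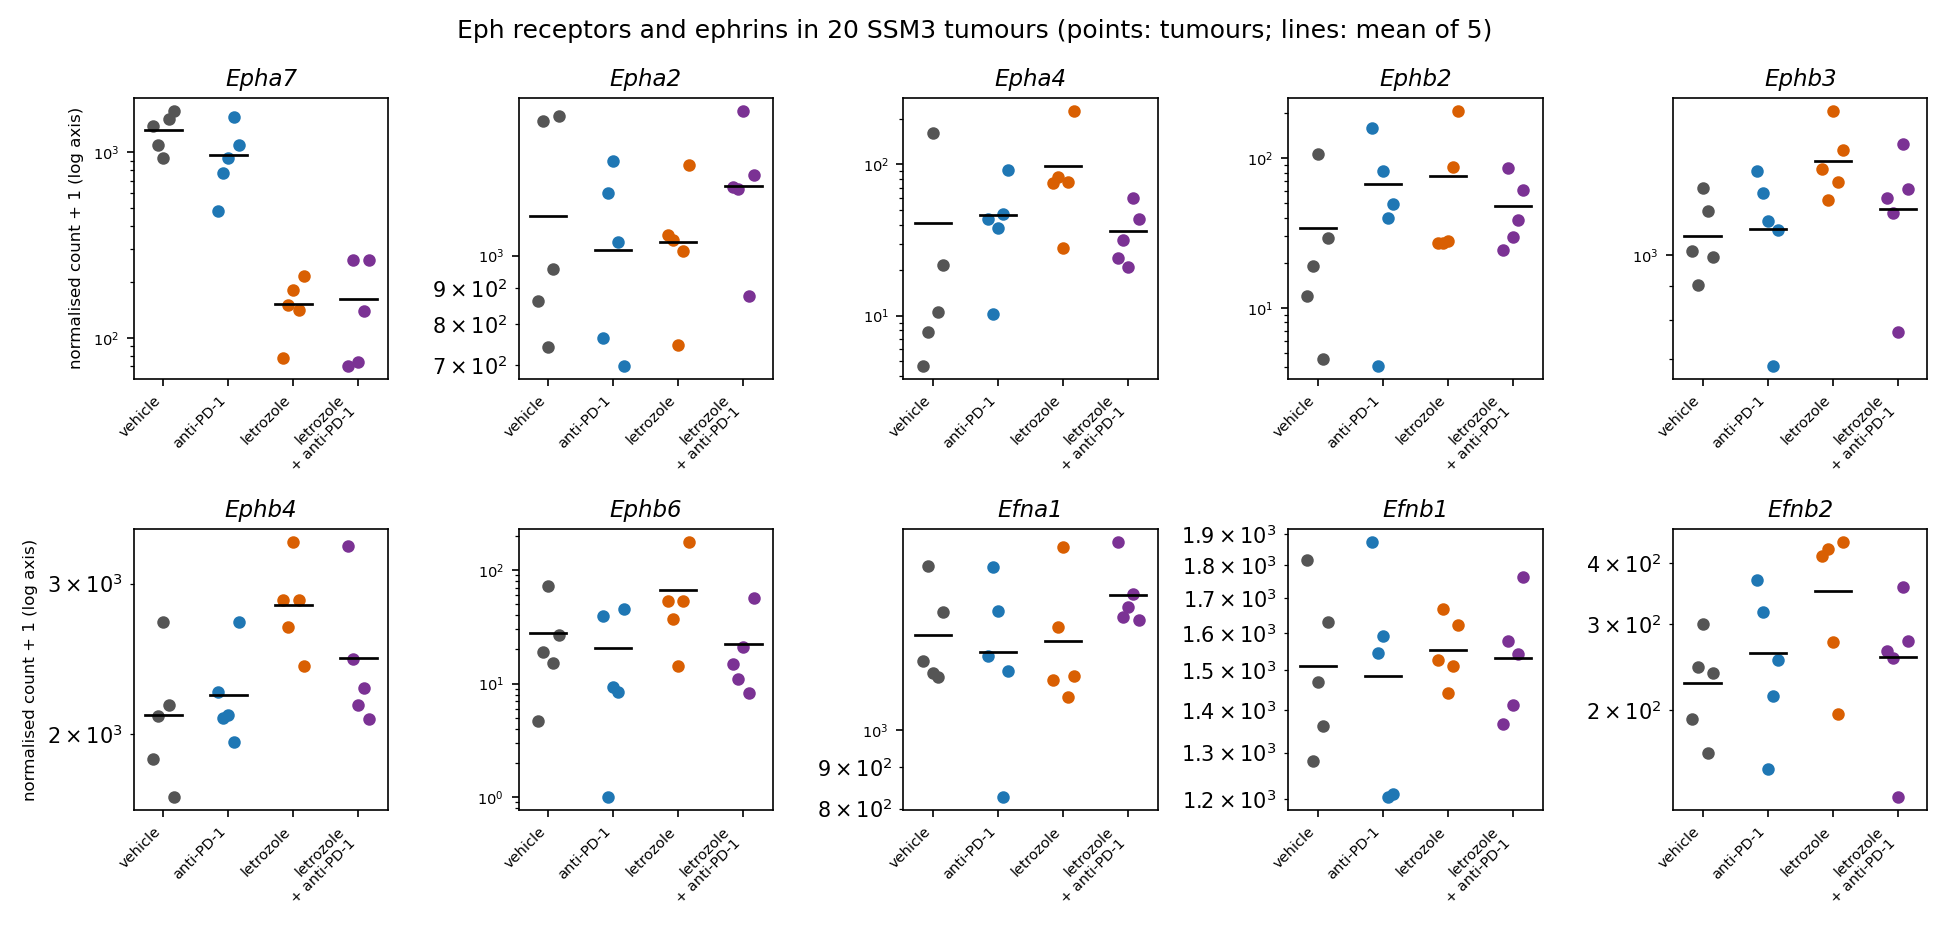
Normalised counts (plus 1, log axis, a separate scale in each panel) of the 10 genes in 20 tumours, 1 point a tumour and 1 line for the mean of 5. Epha7 is the single panel in which both letrozole groups lie apart from both other groups.

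Epha7 ranked in the middle of the family in vehicle tumours and lower under letrozole. Levels of different genes are compared here as normalised counts per kilobase of transcript. In vehicle tumours Efna1 led with 884 ± 124, followed by Ephb4 with 485 ± 88.8, Efnb1 with 464 ± 65.9, Epha2 with 290.2 ± 101, Epha1 with 280.5 ± 36.0 and Ephb3 with 254 ± 33.9. Epha7 was the next, at 195 ± 44.9 and rank 7 of 22, and Efna4 followed with 193 ± 38.5. From Ephb4 down to Efnb2 at rank 12, the ranges of neighbours in this order overlapped, so that the order of neighbours is not resolved. Genes further apart could be separate: Epha7 at 139 to 248 lay below Ephb4 at 389 to 624 and above Efnb2 at 33.8 to 62.5. Efna1 did not overlap with Ephb4, nor Efnb2 with Efnb3. Efnb3, Epha3, Ephb6, Epha4, Ephb2 and Ephb1 followed at 14.6 down to 1.83, and Epha10, Epha5, Epha6 and Epha8 were below 1 per kilobase in vehicle tumours.

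The position of Epha7 in that order shifted from group to group. It ranked 9 in anti-PD-1 tumours (143 ± 58.5 per kilobase) and 12 in both letrozole groups (22.5 ± 7.58 and 23.9 ± 14.3), below Efnb2. In letrozole tumours its range did not overlap with that of Efnb2 above it and did overlap with that of Ephb6 below it. Of the summed per-kilobase level of the 14 receptors, Epha7 made up 12.8% ± 3.30 in vehicle, 9.78% ± 4.48 in anti-PD-1, 1.36% ± 0.41 in letrozole and 1.57% ± 0.93 in letrozole + anti-PD-1 tumours. Of the 9 A-type receptors alone it made up 25.1% ± 5.69 in vehicle and 3.51% ± 1.01 in letrozole tumours. The summed level of the other 13 receptors was 1342 ± 130 per kilobase in vehicle, 1341 ± 124 in anti-PD-1, 1625 ± 102 in letrozole and 1503 ± 142 in letrozole + anti-PD-1 tumours. The 8 ligands summed to 1947 ± 155, 1970 ± 373, 2086 ± 171 and 2252 ± 117 per kilobase in the same order of groups. These shares and sums were not tested.

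The low level under letrozole ran through the annotated Epha7 forms, with an exception in 2 tumours. Letrozole minus vehicle differences of mean log2(value + 1) ran from -3.23 to -3.02 over the 8 rows. With the antibody they ran from -2.89 to -2.52 over 7 rows, and Epha7-208 stood alone at -1.16. Rows of 1 gene share reads, since 71.2% of the bases of Epha7-202 and all 2323 bases of Epha7-204 also lie in Epha7-201. The rows are therefore not independent, and they cannot give the amount of each form. Epha7-202, the truncated form with 713 bases found in no other row, measured 644, 489, 410.0, 703 and 798 normalised counts in vehicle and 41.7, 103, 90.1, 50.8 and 88 in letrozole tumours. Its groups did not overlap, and its ratio to the full-length row lay between 0.333 and 0.691 in all 20 tumours.

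The balance of truncated and full-length rows was compared as the log2 ratio of Epha7-202 plus Epha7-204 to Epha7-201, with 1 added to each side. Reads of the shared exons enter both sides, so this ratio can miss a change in the truncated forms. It describes rows only. The ratio was -0.07 ± 0.041 in vehicle and -0.01 ± 0.091 in anti-PD-1 tumours, a difference of 0.07 with p = 0.151 in an exact two-sided permutation test (5 against 5 tumours, smallest possible p 0.00794). The letrozole + anti-PD-1 tumours (-0.19 ± 0.25) and the letrozole tumours (0.02 ± 0.30) differed by -0.21, with an exact permutation p of 0.294. Relative to the antibody-matched groups without letrozole, the ratio differed by 0.10 in letrozole and by -0.18 in letrozole + anti-PD-1 tumours, within the spread of the letrozole tumours. The SD of the ratio was 0.30 in letrozole against 0.041 in vehicle tumours, beside the lower counts of Epha7, whose part in the spread was not tested.

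Epha7-208, the row with the retained stretch of intron, departed from the rest of the gene in 2 letrozole + anti-PD-1 tumours. The normalised counts of that row in this group were 16.2, 1603, 30.9, 46.6 and 2822. Replicates 2 and 5 were far above the other 3 tumours and also above the vehicle mean of 535 ± 121. In these 2 tumours the row exceeded the full-length row 6.11 and 10.8 times, whereas in the other 18 tumours the ratio lay between 0.233 and 0.667. The full-length row read 262 in both and Epha7-202 read 128 and 109, the highest of their group and far below the Epha7-208 row. The 1805 bases of its extension lie in no other Epha7 row. The longest match of the extension to another transcript of the annotation covered 346 bases at 72.5% identity, and the highest identity over at least 50 bases was 92.0%. Whether the extension is transcribed with the gene was not tested.

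**Figure D3:**
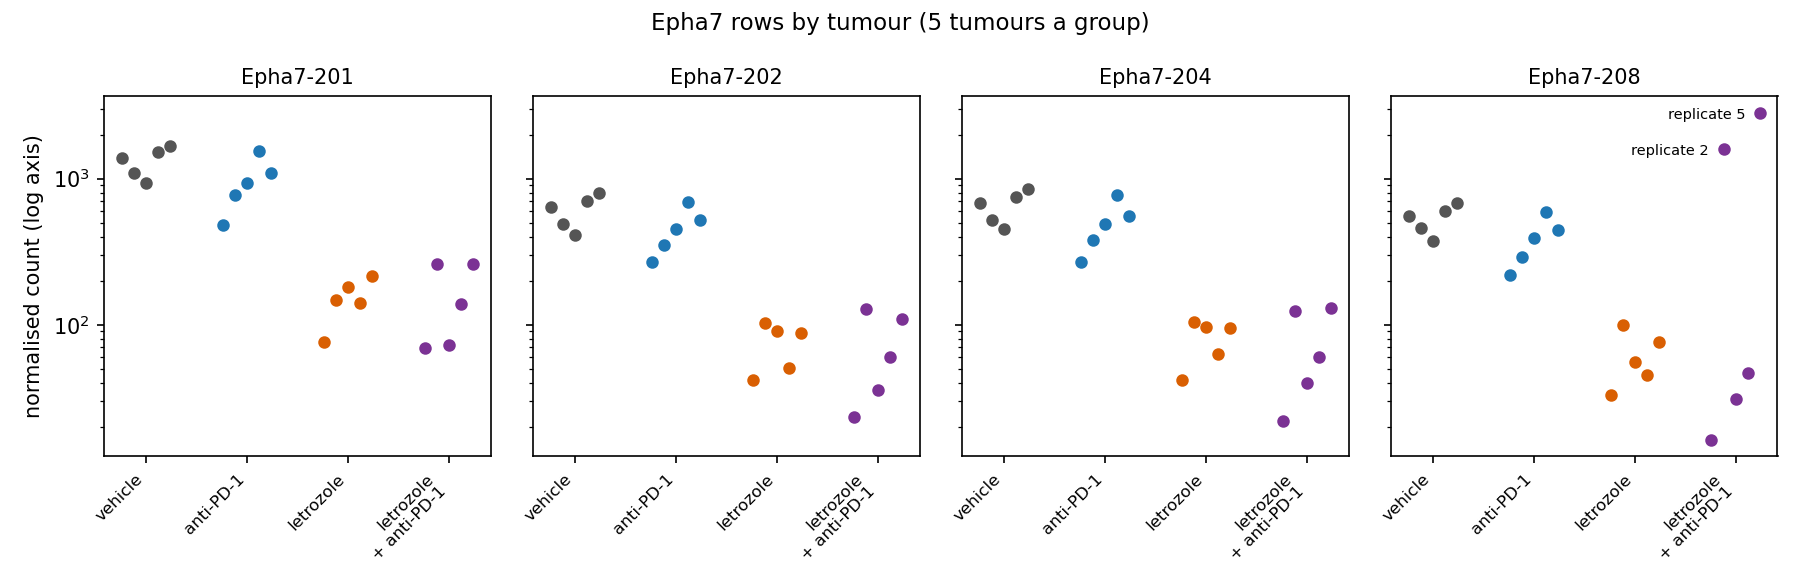
Normalised counts (log axis) of the full-length row, the 2 truncated rows and the row with the intron extension by tumour, 5 points a group. In the last panel replicates 2 and 5 of the letrozole + anti-PD-1 group lie at 1603 and 2822, above all other tumours.

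The stretch upstream of Epha7 was searched for sequence motifs because letrozole removes oestrogen, whose receptor binds a known element. The 250 bases before the start site are from RefSeq on GRCm38.p6 (chr4:28812881-28813130, plus strand), with the matches to a CCAAT box and a GC box, both on the reverse strand at 163 and 107 bases before the start, in capitals.
Epha7 promoter: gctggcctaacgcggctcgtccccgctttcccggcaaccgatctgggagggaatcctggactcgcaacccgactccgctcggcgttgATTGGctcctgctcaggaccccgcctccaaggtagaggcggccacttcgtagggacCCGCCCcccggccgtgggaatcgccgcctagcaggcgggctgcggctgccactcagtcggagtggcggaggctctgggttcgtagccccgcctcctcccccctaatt
Their GC content was 69.2%, against a median of 52.4% over 32851 promoters. In windows of 250 bases before to 50 after each start, searched on both strands, the full oestrogen response element GGTCANNNTGACC was found in 0.07% of all promoters and in none of the 24 start sites of the 21 family genes that matched the RefSeq table. Its half-site GGTCA, which lies within the full element, was found in 40.5% of all promoters, in 8 of the 24 family starts, in 5 of the 12 starts of the 10 genes studied and in neither of the 2 Epha7 starts. CCAAT was found in 37.4% and GGGCGG in 35.7% of all promoters, and both Epha7 starts hold each of them. These are letters in a window of 300 bases and not sites of binding.

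Among the other A-type receptors, Epha2 was well expressed in all groups and Epha4 was low and uneven. Epha2, a receptor of epithelial cells often studied in breast tumours, ranged from 698 to 1599.5 normalised counts over all 20 tumours, with group means of 1136 ± 394 in vehicle, 1018 ± 285 in anti-PD-1, 1044 ± 211 in letrozole and 1252 ± 257 in letrozole + anti-PD-1 tumours. Letrozole differed from vehicle by -0.08 on the log2 scale (95% interval -0.55 to 0.40, adjusted p of 0.920 in limma). With the antibody in both groups the difference was 0.32 (interval -0.15 to 0.79).

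Epha4, a receptor that binds both classes of ephrin, read 3.66, 6.81, 159, 9.52 and 20.5 normalised counts in vehicle tumours. In letrozole tumours it read 73.8, 82.1, 26.8, 75.8 and 225, in anti-PD-1 tumours 42.4, 9.3, 37.3, 46.3 and 90.2, and in letrozole + anti-PD-1 tumours 23.2, 30.4, 20.1, 58.9 and 42.5. A single vehicle tumour, replicate 3, was above all but 1 of the other 19, and the remaining vehicle tumours were below every letrozole tumour. Letrozole differed from vehicle by 2.23 (interval 0.64 to 3.82, adjusted p of 0.178). Without replicate 3 of the vehicle group the difference was 3.05 with an adjusted p of 0.0102, so this call rests on that tumour. Averaged over both antibody arms the difference was 1.03 (interval -0.09 to 2.16, adjusted p of 0.259 in limma). Without that tumour the average was 1.44 (adjusted p of 0.0322). With the antibody in both groups the difference was -0.16 (interval -1.75 to 1.42). The interaction of -2.40 (interval -4.64 to -0.15) had an unadjusted p of 0.0376 and an adjusted p of 0.9999.

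The B-type receptors with high levels were Ephb4 and Ephb3. Ephb4, which marks veins and is also made by mammary epithelium, read 1871, 2101, 2706, 2160.2 and 1687 normalised counts in vehicle and 2866, 2669.6, 3355, 2866 and 2401 in letrozole tumours. In anti-PD-1 tumours it read 2241, 2087, 2103, 1958 and 2706, and in letrozole + anti-PD-1 tumours 3316, 2446, 2164, 2265 and 2081. Vehicle replicate 3 at 2706 was the only vehicle tumour inside the letrozole range. The difference between letrozole and vehicle was 0.44 (interval 0.15 to 0.72, adjusted p of 0.144), and averaged over both antibody arms it was 0.29 (interval 0.08 to 0.49, adjusted p of 0.0784). Without vehicle replicate 3 these became 0.53 (adjusted p of 0.0322) and 0.33 (adjusted p of 0.0236), and without anti-PD-1 replicate 5 the average was 0.32 (adjusted p of 0.0455). These calls therefore turn on single tumours.

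Ephb3, a receptor of epithelial cells, read 1013, 902, 1256, 1161 and 990.0 normalised counts in vehicle and 1338, 1204, 1632, 1282 and 1428 in letrozole tumours, with 1 vehicle tumour inside the letrozole range. The difference was 0.37 (interval 0.02 to 0.73, adjusted p of 0.333), and with the antibody in both groups it was 0.10 (interval -0.25 to 0.46). Ephb2, known from gut epithelium and axon guidance, ranged from 3.1 to 206, and Ephb6, a receptor without kinase activity, from 0 to 176. Their letrozole minus vehicle differences of 1.37 (interval -0.45 to 3.19) and 1.33 (interval -0.57 to 3.24) did not pass the test. Without vehicle replicate 3 they were 1.97 (adjusted p of 0.191) and 1.81 (adjusted p of 0.285). Ephb2 was highest in letrozole replicate 5 (206), anti-PD-1 replicate 1 (159) and vehicle replicate 3 (105), and Ephb6 in letrozole replicate 5 (176) and vehicle replicate 3 (71.1).

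None of the 3 ligands passed the test in any contrast. Efna1, the main A-type ligand and the highest family member per kilobase in all 4 groups, had means of 1308 ± 184, 1247 ± 284, 1286 ± 238 and 1467 ± 139 normalised counts in the vehicle, the anti-PD-1, the letrozole and the letrozole + anti-PD-1 group in turn. Letrozole differed from vehicle by -0.03 (interval -0.34 to 0.28). Efnb1, a B-type ligand of epithelial and stromal cells, had means of 1511 ± 215, 1484 ± 283, 1553 ± 91.1 and 1531 ± 155 in the same order, and letrozole differed from vehicle by 0.05 (interval -0.20 to 0.30). Efnb2, the ligand of Ephb4 that marks arteries, read 190.5, 244, 299.6, 162 and 237 normalised counts in vehicle and 412, 427, 275, 195 and 441 in letrozole tumours. Of the letrozole tumours 3 were above every vehicle tumour, and the difference of 0.59 (interval -0.00 to 1.18) had an adjusted p of 0.363. With the antibody in both groups it was -0.02 (interval -0.62 to 0.57). For letrozole against vehicle the intervals of Efna1 and Efnb1 reach at most 0.34 from 0 on the log2 scale, whereas those of Epha4, Ephb2 and Ephb6 reach beyond 3.

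All 10 genes passed the filter on low values, which asked for 5 or more libraries with a value of 10 or higher, and none of the 9 other than Epha7 was called by limma, edgeR or DESeq2 in any of the 7 contrasts. For letrozole against vehicle, where limma called 0.958% of all genes, 3 of the 9 (Epha4, Ephb3 and Ephb4) had an unadjusted p under 0.05, beside 13.9% of all genes. For letrozole + anti-PD-1 against anti-PD-1 limma called 1.07% of all genes, and 0 of the 9 had an unadjusted p under 0.05, beside 13.4%. Averaged over both arms, where limma called 7% of all genes, only Ephb4 of the 9 had an unadjusted p under 0.05, beside 22.9%. For letrozole + anti-PD-1 against vehicle, where 1.18% were called, it was 0 of 9, beside 13.2%. The antibody contrasts and the interaction, with 0% called, gave an unadjusted p under 0.05 for Epha4 in the interaction and for no other of the 9. In the same contrasts edgeR called 0.852% (letrozole against vehicle), 0.877% (with the antibody in both groups), 6.57% (averaged) and 1.03% (letrozole + anti-PD-1 against vehicle) of all genes, and DESeq2 called 3.14%, 2.64%, 9.91% and 3.44%. DESeq2 called 0.0252% for anti-PD-1 against vehicle, 0.0454% for letrozole + anti-PD-1 against letrozole and 0.0202% for the interaction. None of the 9 had groups without overlap in any pairwise contrast. The share of all genes without overlap was 3.67% for letrozole against vehicle, 2.84% for letrozole + anti-PD-1 against anti-PD-1, 2.91% for letrozole + anti-PD-1 against vehicle, 0.413% for anti-PD-1 against vehicle and 0.539% for letrozole + anti-PD-1 against letrozole.

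The median log2 difference of the 9 genes was 0.437 for letrozole against vehicle, beside 0.026 for all genes, with 7 higher and 2 lower. With the antibody in both groups it was 0.103, beside 0.031. For anti-PD-1 against vehicle it was 0.01, beside 0, and for letrozole + anti-PD-1 against letrozole -0.261, beside -0.011, with 7 of 9 lower. The first and the last of these contrasts share the letrozole tumours, and the first and the third share the vehicle tumours, so their values are not independent. For letrozole against vehicle the largest differences were those of the low and uneven Epha4 (2.23), Ephb2 (1.37) and Ephb6 (1.33). The intervals of Ephb2 and Ephb6 include 0. The share of all genes that were higher or lower was not taken, so nothing is read from the counts by direction.

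**Figure D4:**
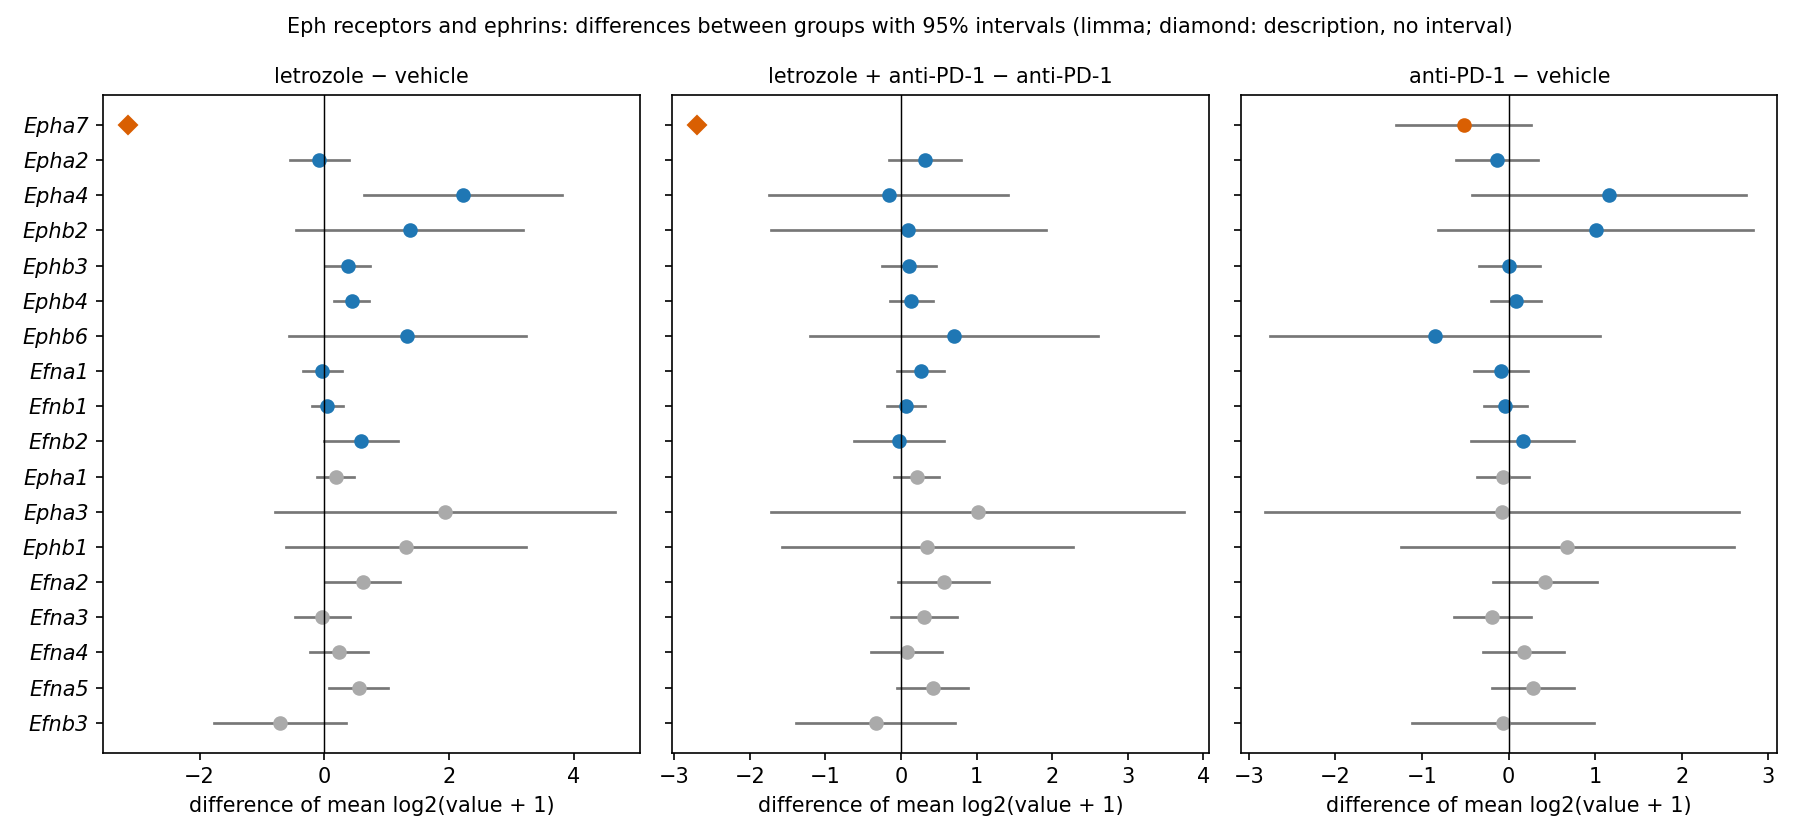
Differences of mean log2(value + 1) with 95% intervals from limma for 18 Eph and ephrin genes in 3 contrasts, with the 10 genes studied in orange and blue and 8 others in grey. Epha7 is drawn without an interval (diamond) in both letrozole contrasts, where it lies at -3.15 and -2.71, and no other gene there lies below -1.

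Of the 12 other family genes, 8 passed the filter, and none was called by limma or edgeR. Efna2 and Efna5, both A-type ligands, came closest when averaged over both antibody arms, with differences of 0.59 (interval 0.17 to 1.02, adjusted p of 0.085) and 0.48 (interval 0.15 to 0.82, adjusted p of 0.0723). DESeq2 called both there, with adjusted p of 0.0483 for Efna2 and 0.0317 for Efna5, and it called 9.91% of all genes. It also called both for letrozole + anti-PD-1 against vehicle, Efna2 at 1.05 (adjusted p of 0.0151) and Efna5 at 0.70 (adjusted p of 0.0496), beside 3.44% of all genes. With array weights limma called both in the averaged contrast (adjusted p of 0.0433 and 0.0226). Without anti-PD-1 replicate 1, limma called both, with 0.70 (adjusted p of 0.0281) and 0.55 (adjusted p of 0.0398). Epha1, a receptor of epithelial cells with a level near that of Epha2 per kilobase, differed by 0.19 (interval -0.02 to 0.41), and 7.21% of its exon bases overlap Zyx. Epha3 was at 0 to 32.9 normalised counts in 4 vehicle tumours and at 282 in replicate 3, and its letrozole minus vehicle difference was 1.94 with that tumour and 2.96 (adjusted p of 0.176) without it. Epha5, Epha6, Epha8 and Epha10 did not pass the filter.

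Genes that act with Eph receptors were read from a list of 42 adaptors, exchange factors, kinases, phosphatases and proteases, all of which were tested. Averaged over both antibody arms 8 of the 42 were called, 6 higher and 2 lower, beside 7% of all genes (3.29% higher and 3.71% lower). The list was chosen with earlier results of these data known and was not tested as a set, so nothing is read from this count about Eph signalling. Nck2, an adaptor between receptors and the cytoskeleton, rose by 0.42 (adjusted p of 0.000697). It measured 7221 ± 672 normalised counts in vehicle and 7734 ± 944 in anti-PD-1 tumours, against 9798 ± 899 in letrozole and 10133 ± 612 in letrozole + anti-PD-1 tumours. Rock2, a kinase that acts on the actin cytoskeleton, fell by 0.33 (adjusted p of 0.00123), with 6115 ± 511 and 6322 ± 503 in the groups without letrozole against 5125 ± 277 and 4737 ± 353. Pik3r1, the regulatory subunit of PI 3-kinase, rose by 0.71 (adjusted p of 0.00326), with 2909 ± 593 and 2869.5 ± 603 against 4938 ± 1489 and 4545 ± 880.4. The tyrosine kinase Abl1 rose by 0.24, Rasa1, which switches Ras off, by 0.31 and the membrane protease Mmp14 by 0.40. Of the 2 remaining calls, which lie outside the 6 genes the naming rule takes, the guanine nucleotide exchange factor Vav3 was higher by 0.58 and the lipid phosphatase Inppl1 lower, at -0.25. Inppl1 lost its call in 20 of 34 alternatives (adjusted p up to 0.0997), among them the removal of any library except vehicle replicates 3 and 4, anti-PD-1 replicate 5, letrozole replicate 3 and letrozole + anti-PD-1 replicate 1. Vav3 lost it without letrozole replicate 3 (0.0502) or letrozole + anti-PD-1 replicate 5 (0.0528). Rasa1 (0.0519) and Abl1 (0.0817) lost it when each library was centred on its median.

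In the separate letrozole contrasts limma called fewer genes of the list. For letrozole against vehicle it called 1 of 42, beside 0.958% of all genes: Nck2, at 0.44 with an adjusted p of 0.0248. For the same contrast edgeR called 1 (Nck2) and DESeq2 called 6 (Nck2, Chn1, Rock2, Inppl1, Pik3r1 and Mmp14), beside 3.14% of all genes by DESeq2. Without vehicle replicate 3 limma also called Mmp14 (0.58, adjusted p of 0.0305), Pik3r1 (0.83, adjusted p of 0.026) and Rock2 (-0.29, adjusted p of 0.0489). Mmp14 was called without letrozole + anti-PD-1 replicate 5 as well (0.52, adjusted p of 0.0489), and Vav3 without anti-PD-1 replicate 1 (0.63, adjusted p of 0.0366). Nck2 lost its call in 9 of 34 alternatives (adjusted p up to 0.085), 7 of which left out 1 library: vehicle replicate 1, 2, 4 or 5 or letrozole replicate 3, 4 or 5. Nck2 (0.40), Abl1 (0.31) and Rock2 (-0.42) were called by limma for letrozole + anti-PD-1 against anti-PD-1, beside 1.07% of all genes, while edgeR called 2 of the 42 and DESeq2 4, Pik3r1 included. Nck2 lost this call in 16 alternatives (adjusted p up to 0.148) and Abl1 in 19 (up to 0.183), the removal of most single libraries included, and Rock2 in 3 (up to 0.0953), including the removal of anti-PD-1 replicate 4. For letrozole + anti-PD-1 against vehicle limma called Nck2 (0.49), Abl1 (0.34) and Rock2 (-0.37), beside 1.18% of all genes, edgeR 3 and DESeq2 5. Abl1 lost this call in 7 alternatives (adjusted p up to 0.161), among them the removal of vehicle replicate 2 or 5 or letrozole + anti-PD-1 replicate 1, 3 or 5. Rock2 lost it in 9 (up to 0.109), among them the removal of vehicle replicate 1, 4 or 5 or letrozole + anti-PD-1 replicate 2, 4 or 5. Without vehicle replicate 3 Pik3r1 (0.73, adjusted p of 0.0462) and Rasa1 (0.38, adjusted p of 0.0457) were also called. For the antibody contrasts and the interaction 0 of 42 were called by limma, edgeR or DESeq2, with an unadjusted p under 0.05 for 1 (Acp1) in anti-PD-1 against vehicle, 3 (Abl1, Abl2 and Grb2) in letrozole + anti-PD-1 against letrozole and 1 (Acp1) in the interaction, beside 2.72%, 3.16% and 1.98% of all genes. The list's median for the averaged contrast was 0.045, beside 0.03 for all genes.

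The genes whose pattern over the 20 tumours was most like that of Epha7 were sought among 10937 tested genes with a median of at least 100 normalised counts. The highest Pearson r on the log2 scale were those of F3, the coagulation starter tissue factor (0.955), the potassium channel subunit Kcne2 (0.944), Pgr (0.943), Agps (0.939), Rmnd5a (0.937) and Rgs2 (0.924). The lowest were those of Lysmd3 (-0.928) and the homeobox genes Irx5 (-0.920) and Irx3 (-0.906). The 20 points share the split between letrozole-treated and other tumours, which sets most of these values. Kcne2 went from 4955 ± 1083 normalised counts in vehicle to 104 ± 58.1 in letrozole tumours, and F3 from 10370.0 ± 4238 to 1182 ± 320. After each group's mean was taken off, the highest r were those of Trim16 (0.803), Prdx6 (0.794), Rnf219 (0.777), Rab8a (0.775) and Atp2c2 (0.770). None of them was among the highest before this step. Their rank correlations (Spearman) ran from 0.657 for Trim16 to 0.820 for Atp2c2. These genes were picked as the highest of 10937 over only 20 tumours. Whether chance alone gives values this high was not tested, so no link with Epha7 is read from them. Within the family the r with Epha7 over the 20 tumours was -0.70 for Efna5, -0.68 for Efna2, -0.63 for Ephb4 and -0.34 for Epha4.

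Markers of other cell types moved with the low receptors and less with Epha7. The fibroblast list of 8 markers (Col1a1, Col1a2, Col3a1, Dcn, Lum, Pdgfra, Pdgfrb and Fap) had a mean log2 level of 6.68 to 11.5 in vehicle, 7.75 to 10.9 in anti-PD-1, 8.94 to 11.2 in letrozole and 9.07 to 10.9 in letrozole + anti-PD-1 tumours, with Lum at 0 in at least 1 library. Its highest tumours were vehicle replicate 3 (11.47) and letrozole replicate 5 (11.22), in which Epha4, Ephb2 and Ephb6 were also high. The Pearson r with this list over the 20 tumours was 0.84 for Ephb2, 0.81 for Epha4, 0.80 for Epha3 and 0.68 for Ephb6, against -0.25 for Epha7 and 0.28 for Ephb4. With the macrophage list of 6 markers it was 0.82 for Epha4 and 0.79 for Ephb2. Other lists gave similar values, so no 1 cell type stands out. With the T cell list r was 0.74 for Ephb2, 0.68 for Epha4, 0.73 for Epha3 and 0.62 for Ephb6. With the basal and myoepithelial list it was 0.71, 0.67, 0.52 and 0.57 in the same order. Letrozole replicate 5 also had the highest level of the basal list, at 9.975. Efnb2 and Ephb4, known from arteries and veins, had r of 0.61 and 0.34 with the endothelial list. Their r with the luminal list was higher, at 0.63 and 0.40. Epha3 (0.75) and Ephb1 (0.62) were above both genes on the endothelial list, so these values do not single out vessels. The points of these correlations share libraries, scaling and depth. In letrozole against vehicle 0 of the 8 fibroblast, 0 of the 8 endothelial and 0 of the 8 basal markers were called by limma, beside 0.958% of all genes, and 3, 0 and 5 had an unadjusted p under 0.05, beside 13.9%. By edgeR the counts were 0, 0 and 1 (Krt14), beside 0.852% of all genes, and by DESeq2 0, 0 and 4 (Krt5, Krt14, Krt17 and Myh11), beside 3.14%. The part of these cell types in the levels of Epha4, Ephb2 and Ephb6 was not tested.

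**Figure D5:**
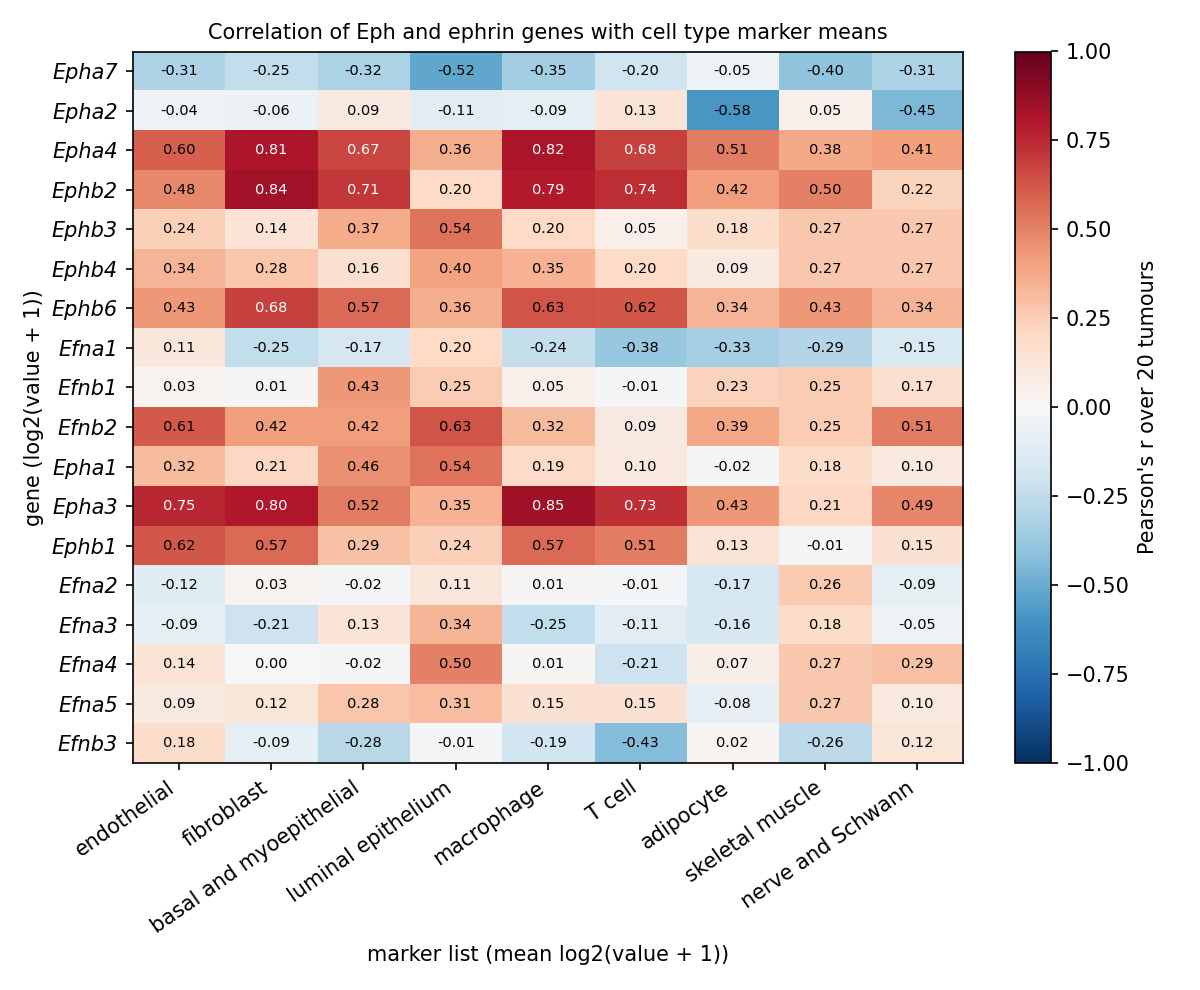
Pearson's r over 20 tumours between each Eph or ephrin gene, as log2(value + 1), and the mean log2 level of 9 lists of cell type markers (red positive, blue negative). Epha4, Ephb2, Ephb6 and Epha3 have r of at least 0.63 with the fibroblast and macrophage lists and of at least 0.62 with the T cell list. Epha7 is negative with all 9.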

How the data were processed

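RNA-seq was done on 20 tumours in 4 groups of 5. STAR 2.7.10a, DESeq2 and the build GRCm39 (mm39) are named, without their roles, per the submitters' processing notes. Not given in the sources used here are the counter, its annotation, its use of strand and the DESeq2 version. The authors deposited 1 table of 127442 transcripts in the unit signal, which the values show to be whole read counts over a size factor (0.472 to 1.46 by library). Undoing that factor gave whole reads for 100% of values at a tolerance of 0.001. GENCODE vM21 (GRCm38) named 118871 rows (93.3%), and 8571 unnamed rows with 1.79% to 2.77% of reads and 49 shared symbols were left out. Since the builds differ, coordinates are given only for the RefSeq promoter. No exon base of the 10 genes overlaps another gene in that annotation.

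The test was limma 3.58.1 with a trend on log2(value + 1), run on the 19840 genes that reached 10 in 5 or more libraries. All 20 libraries shared 1 fit (residual degrees of freedom: 16), and its two-sided p-values were adjusted per contrast by the Benjamini-Hochberg method at a threshold of 0.05. Fold changes on this scale understate the changes of low genes. The fit was tested on simulated data. The labels call the tumours biological replicates, and p-values measure the spread between them. Named were the 10 genes, all Epha7 rows, the 12 other family genes, up to 6 called genes of the pathway list per contrast, the genes most and least like Epha7, and Pgr. The members and lists were chosen with earlier results of these data known.

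Alternatives were pseudocounts of 0.5 and 5, no filter, a minimum of 50, quantile normalisation, median centring of libraries, array weights, a replicate block, the groups of a contrast alone, the sum or highest median over transcripts, edgeR 4.0.16 and DESeq2 1.42.0 on the recovered reads, and leaving out libraries.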

Additional observations from a re-analysis of the deposited data

Results flagged for a closer look

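In 9 of the 92 groups of 5 tumours that were checked for a value far from the rest, the gap to the nearest other tumour exceeded 0.71 of the group's whole range, the critical value of Dixon's test. Chance gives such a gap in about 1 of 20 groups if values are normally distributed. The check ran on unlogged counts and ratios, and Epha7 rows share reads, so 9 of 92 cannot be set against that share. Epha4 measured 159.1 normalised counts in vehicle replicate 3, with the other vehicle tumours at 3.66 to 20.5, and 225.3 in letrozole replicate 5, with the others at 26.8 to 82.1. Ephb2 measured 104.8 in vehicle replicate 3, with the others at 3.57 to 28.4. Ephb6 measured 176.1 in letrozole replicate 5, with the others at 13.4 to 52.7, and 55.67 in letrozole + anti-PD-1 replicate 5, with the others at 7.28 to 20.1. Epha3 measured 281.8 in vehicle replicate 3, with the others at 0 to 32.9. Vehicle replicate 3 and letrozole replicate 5 also had the highest fibroblast, macrophage, T cell and basal marker levels of their groups.

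Epha5, a receptor of neurons that was below 4 normalised counts in 18 of the 20 tumours, measured 281.7 in anti-PD-1 replicate 1, with the others of that group at 0 to 3.10. It measured 35.1 in letrozole replicate 1, with the others of that group at 0 to 1.67. In anti-PD-1 replicate 1 this value stands in 3 overlapping Epha5 rows, while the 3 longest rows read 4.24. The ratio of Epha7-207, the row with an alternative first exon, to the full-length row was 0.2909 in anti-PD-1 replicate 1, with the others of that group at 0.0932 to 0.143. Letrozole replicate 2 had a higher ratio, 0.356, which was not flagged by the rule. Anti-PD-1 replicate 1 had the fewest reads of all 20 libraries, and the part of depth in its ratio was not tested.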

How the results depend on the processing

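The number of called genes among the 9 other than Epha7 changed in 2 of 7 contrasts. For letrozole against vehicle it was 2 (Epha4 and Ephb4) with array weights and 2 without both libraries that stand apart, and 0 to 2 over leaving out each library. For the average over both arms it was 1 (Ephb4) with array weights and 2 (Epha4 and Ephb4) without both libraries that stand apart, and 0 to 2 over leaving out each library. In the other 5 contrasts it was 0 under all 34 alternatives. Epha7 was lower under letrozole in all of them, by -3.30 to -2.93 for letrozole against vehicle and by -2.94 to -2.15 with the antibody, where -2.15 was the value summed over all transcripts, Epha7-208 included. The antibody differences of Epha7 passed in none, with adjusted p of 0.896 to 1. The log2 ratio of truncated rows to the full-length row passed in none of 14 (permutation p of 0.0952 to 0.514). Of 6038 tested values, 172 changed sign, all without a call. Fitting replicate number as a block called 0 of the 9 genes, left the Epha7 differences at -3.15 and -2.71 and, of the calls named, ended that of Inppl1 (adjusted p of 0.0561). Tumours with the same number had deviations correlated at -0.34 to 0.20 (median 0.005). Tumours with different numbers had -0.38 to 0.43 (median -0.003), and 5 of 20 correlated best with their own number. These values gave no sign that the numbers pair the tumours, but they cannot exclude it. Epha4, Ephb2 and Ephb6 had means under 100 normalised counts in every group, and the part of depth in their spread was not tested.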
